A study of Mus musculus with 87 samples.

Results

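Livers of mice killed 10 h after a sham operation (S10) were compared with resting livers taken at 0 h (C0). The comparison holds 9 of the 87 labelled samples, which are S10 replicates 1 to 3 and C0 replicates 1 to 6, and 80 of the 87 have values. Members were chosen by the sample labels alone. All mice were C57BL/6 males of 12 to 14 weeks kept on 12 h of light from ZT0 (zeitgeber time 0, lights on), and for the last 2 weeks they had food only between ZT12 and ZT24. The S10 mice had a laparotomy (an opening of the abdomen without removal of liver) under isoflurane at ZT2 and were killed at ZT12. The C0 mice were not operated on and were killed at ZT2. Each sample is the poly(A)-selected RNA of 1 liver. The 2 groups thus differ in surgery, in time of day and, by the feeding schedule, in the hours since food, and without an unoperated group at ZT12 these cannot be told apart. For reference, values are given from livers taken 10 h after partial hepatectomy, that is the removal of part of the liver (X10, ZT12, n = 6), 4 h (S4, ZT6, n = 5), 20 h (S20, ZT22, n = 3) and 48 h (S48, ZT2, n = 3) after sham surgery, and from unoperated livers at ZT6 (C4, n = 3).

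The acute-phase response is the change of liver secretion that follows injury or inflammation. Interleukin-6 and related cytokines act through STAT3 to raise transcripts of proteins such as serum amyloid A and fibrinogen, while albumin falls. The circadian clock of the liver is a feedback loop in which ARNTL with CLOCK or NPAS2 activates the Per, Cry and Nr1d genes, whose products repress ARNTL activity or Arntl transcription. Feeding time drives a further daily cycle of lipid, glucose and bile acid enzymes.

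Values are the authors' RPKM (reads scaled to transcript length and to the mapped reads of the library). Estimated depth was 17.1, 19.9 and 32.8 M reads in the S10 libraries and 25.5 to 34.4 M reads (median 31.6) in C0. At the S10 median depth the detection threshold (log2 RPKM above −1.5 in at least 1 library) stood for 14.1 reads on a transcript of 2 kb. Fold changes are on the log2(RPKM + 0.25) scale, which understates those of weak transcripts, and P values are from limma with Benjamini-Hochberg adjustment over the 15396 genes kept. Calls needed both an adjusted p under 0.05 and a change of more than 0.5 on the log2 scale. Hepatocyte markers were present in all 9 livers. Their summed level was 33981 to 38079 RPKM in S10 and 47737 to 57128 RPKM in C0, of which albumin is the largest part. With bulk RNA, fewer cells of a type and less RNA per cell cannot be told apart. That S10 and C0 replicates are separate animals is from the labels and methods. The livers of a time point were collected 3 at a time. P values thus measure only the spread between livers of a group, pooled over all groups of the series in the fit.

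The resting livers stood apart by their replicate numbers. Between C0 replicates 1 to 3 and 4 to 6, 316 genes (2.05% of those tested) had no overlap and mean log2 levels more than 1 apart. The same rule found 1216 genes between S10 and C0 replicates 1 to 3, and 1238 between S10 and C0 replicates 4 to 6. C0 replicates 7 to 9, resting livers outside this comparison, stood further apart. Between them and C0 replicates 1 to 3 the rule found 503 genes (3.27%), and between them and replicates 4 to 6 it found 630 (4.09%). Cdkn1a, which encodes the cell cycle inhibitor p21, was at 1.92 to 2.92 RPKM in replicates 1 to 3 and 41.2 to 45.4 RPKM in replicates 4 to 6. Lpin1, a phosphatidate phosphatase, was at 5.01 to 5.94 RPKM and 106 to 167 RPKM. The clock repressor Per1 was at 0.0417 to 0.126 RPKM and 3.09 to 3.65 RPKM. These 3 transcripts were low in replicates 1 to 3 and high in 4 to 6, while Nr1d1 went the other way, at 5.64 to 9.69 RPKM and 0.528 to 1.46 RPKM. The cause was not tested. By the study's design the mice were processed in separate experimental periods. All S10 livers came from the same period, whereas the resting livers came from all of them. The labels tie no replicate number to a period, so period is a further difference between S10 and C0 whose part cannot be told apart. Changes against each set of 3 are given below for many of the named genes whose call differed. With only S10 and C0 in the fit, 11 of the named genes lost their call, among them Cdkn1a, Lpin1, Per1 and Nr1d1. In the same way S10 replicate 3 stood apart from replicates 1 and 2 for several inflammatory transcripts, and those are given per liver.

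**Figure D1:**
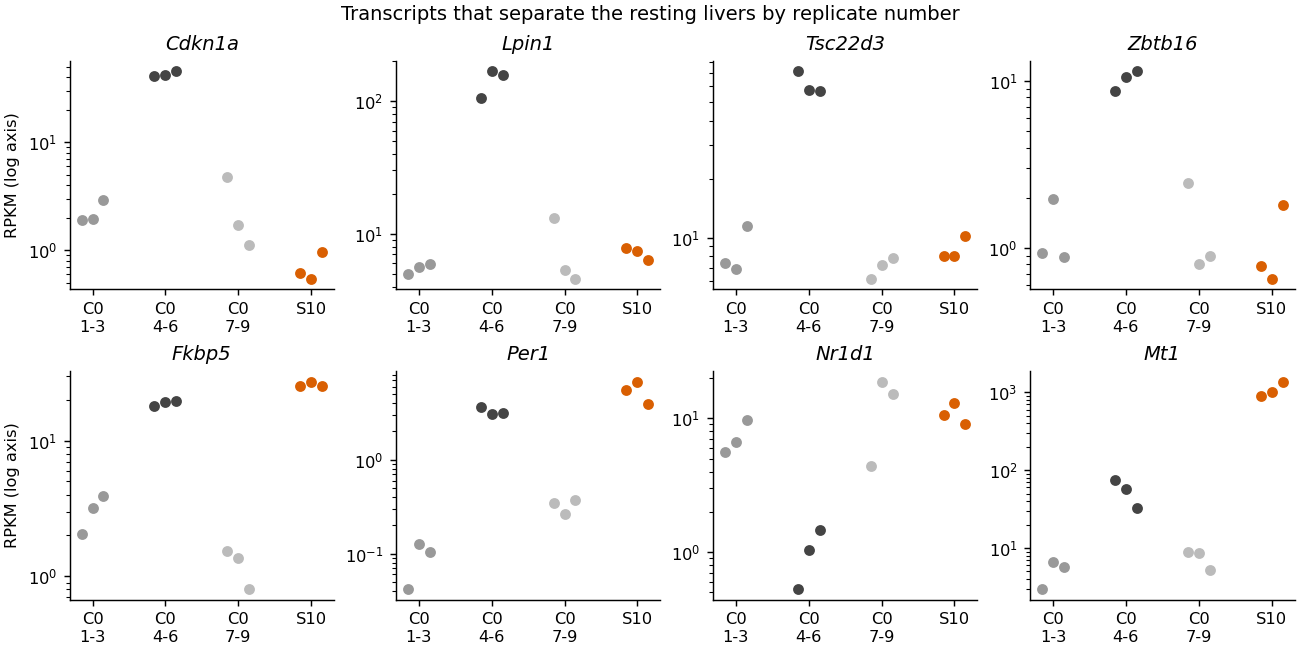
RPKM on log axes of 8 transcripts in the resting livers (C0), split by replicate numbers 1 to 3, 4 to 6 and 7 to 9, and in the 3 S10 livers, with 1 point per liver. Cdkn1a, Lpin1, Tsc22d3, Zbtb16, Fkbp5, Per1 and Mt1 were higher in C0 replicates 4 to 6 than in 1 to 3 and Nr1d1 was lower, with no overlap.

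Of the 15396 genes, 2275 (14.8%) were called higher and 1569 (10.2%) lower in S10 than in C0, together 25.0%. The median gene had a log2 fold change of 0.07. Among the calls 59.2% were higher. Scaling every library to the same median moved the median gene to −0.11 and the share of higher calls to 33.5% (1287 higher, 2553 lower), and quantile normalization gave 49.2% (1712 higher, 1766 lower). The 10 most abundant genes took 23.3% to 24.6% of all RPKM in S10 and 27.0% to 30.6% in C0. Against C0 replicates 1 to 3 alone, 1904 of the higher and 1303 of the lower calls were kept, and against replicates 4 to 6 alone 1866 and 1263. Both sets kept 1530 higher and 1035 lower calls, and neither gave an opposite call. All 3 S10 livers lay above all 6 C0 livers for 25.4% of the genes and below all of them for 15.2%. These shares are the background for the statements on overlap between S10 and C0 below. For X10, S4, S20 and C4 no such share was computed.

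**Figure D2:**
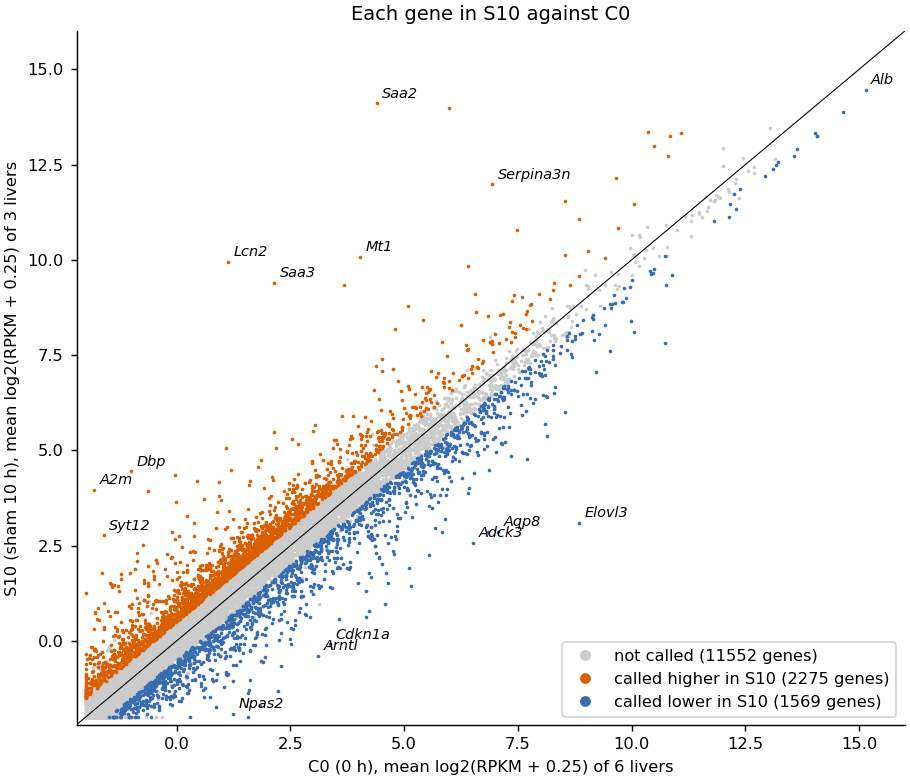
Mean log2(RPKM + 0.25) of each of the 15396 genes in 3 S10 livers (vertical) against 6 C0 livers (horizontal), with the line of equal levels. Orange marks the 2275 genes called higher and blue the 1569 called lower. Among the labelled genes, which leave out Saa1, Saa2, Lcn2 and Saa3 lie farthest above the line and Elovl3 farthest below.

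The transcripts named first are from the largest differences in either direction among genes without overlap between S10 and C0. Their lack of overlap is thus set by the choice and is not a finding. The same holds for genes of this choice that are described further below, such as Arntl, Npas2 and Cdkn1a. Saa2, which encodes serum amyloid A2 (mm9 chr7:54007203-54009684), was at 17398, 16114 and 19924 RPKM in S10 and 16.5 to 28.6 RPKM in C0, median 20.5 (log2 fold change 9.71 ± 0.68 (SE), adjusted p = 1.48e-18). Lcn2, which encodes the iron-scavenging lipocalin 2, was at 804, 891 and 1358 RPKM in S10 and 1.61 to 2.28 RPKM in C0, median 1.94 (log2 fold change 8.83 ± 0.62 (SE), adjusted p = 2.08e-18). By this choice every S10 liver lay above every C0 liver, and for both the gap was large. Mt1, a zinc-binding metallothionein, was at 905, 1014 and 1375 RPKM in S10 and 2.96 to 74.1 RPKM in C0, median 19.6. Mt2 was at 443, 510.2 and 1174 RPKM in S10 and 2.39 to 61.6 RPKM in C0, median 17.0. Neither overlapped between the groups, again by the choice, although the C0 livers themselves spread widely. A2m, a protease inhibitor, was at 8.48, 9.25 and 45.4 RPKM in S10 and 0.0117 to 0.0587 RPKM in C0, median 0.0345, with S10 replicate 3 far above the other 2 livers. Gnat1, a transducin subunit best known from rod photoreceptors, was at 13.9, 13.1 and 19.1 RPKM in S10 and 0.0887 to 0.788 RPKM in C0, median 0.466. By the choice, all S10 livers were above C0 for both. Syt12, a synaptotagmin, was at 6.77, 7.06 and 5.99 RPKM in S10 and 0.0606 to 0.111 RPKM in C0, median 0.0822. Acot3, a peroxisomal acyl-CoA thioesterase, was at 21.0, 28.0 and 13.9 RPKM in S10 and 0.459 to 1.35 RPKM in C0, median 0.714. The log2 fold changes of these were 6.05, 5.64, 5.77, 4.58, 4.37 and 4.39 in the same order.

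Downward, Elovl3, an elongase of very long chain fatty acids (mm9 chr19:46206387-46210184), was at 8.98, 10.7 and 5.98 RPKM in S10 and 372 to 546 RPKM in C0, median 464 (log2 fold change -5.75 ± 0.44 (SE), adjusted p = 5.99e-17). Aqp8, a water channel of hepatocytes, was at 6.95, 5.83 and 8.62 RPKM in S10 and 82.4 to 194 RPKM in C0, median 142 (log2 fold change -4.20 ± 0.48 (SE), adjusted p = 1.11e-10). The highest S10 value of each was far below the lowest C0 value. Hsd3b3, a hydroxysteroid dehydrogenase, was at 6.90, 4.90 and 10.2 RPKM in S10 and 102 to 127 RPKM in C0, median 114. Its relative Hsd3b2 was at 1.45, 1.29 and 1.66 RPKM in S10 and 17.8 to 20.7 RPKM in C0, median 18.2, with C0 replicate 1 highest. These 2 are close paralogs, so their separate values are uncertain. Adck3, a mitochondrial protein of coenzyme Q synthesis, was at 5.23, 5.21 and 6.80 RPKM in S10 and 87.0 to 95.6 RPKM in C0, median 90.9, and its C0 livers lay close together. Ppp1r3c, a glycogen-targeting subunit of protein phosphatase 1, was at 4.99, 4.10 and 4.42 RPKM in S10 and 28.2 to 59.6 RPKM in C0, median 50.4, with C0 replicate 1 lowest. Acss2, which makes acetyl-CoA from acetate, was at 3.27, 2.94 and 4.47 RPKM in S10 and 14.3 to 52.5 RPKM in C0, median 39.8. The log2 fold changes were -3.97, -3.46, -3.94, -3.31 and -3.20, and by the rule of choice none overlapped between the groups. The other transcripts among the 15 largest decreases were Agxt2l1, Gm4956, Clec2h, Chrna4, Abca8a, Arntl, Cdkn1a and Npas2, with log2 fold changes from -3.71 to -3.15.

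Among the clock genes, 11 of 19 were called higher and 5 lower in S10 than in C0 (against 14.8% and 10.2% of all genes), with a median log2 fold change of 1.04 against 0.07 over all genes. These shares of all genes are the background for the S10 against C0 counts of every list below. Of the 3 activators 2 were called lower, of the 6 repressors of the core loop 4 higher and 1 lower (Cry1), and of the 4 output factors, counting their antagonist, 3 higher and 1 lower (Nfil3). Only 3 clock genes were called lower against C0 replicates 1 to 3 alone. Some of the higher members hold the E-box or D-box in the 250 bases before their start. The E-box (CACGTG) is the element bound by ARNTL with its partners and the D-box (TTATGNAA) that of the DBP family. Their upstream sequences are shown because their transcripts were higher in S10 (RefSeq, GRCm38.p6), with E-boxes and D-boxes on either strand in capitals. Ciart is named Gm129 in the deposited table (chr3:95882229-95882478, minus strand). Per1 lies at chr11:69098699-69098948, plus strand and Per3 at chr4:151044666-151044915, minus strand.

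Ciart: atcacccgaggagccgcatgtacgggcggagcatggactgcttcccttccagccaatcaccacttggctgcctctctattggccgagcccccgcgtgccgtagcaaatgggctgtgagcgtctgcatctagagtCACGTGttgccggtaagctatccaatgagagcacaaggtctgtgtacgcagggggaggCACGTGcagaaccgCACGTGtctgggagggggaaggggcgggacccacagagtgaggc
Per1: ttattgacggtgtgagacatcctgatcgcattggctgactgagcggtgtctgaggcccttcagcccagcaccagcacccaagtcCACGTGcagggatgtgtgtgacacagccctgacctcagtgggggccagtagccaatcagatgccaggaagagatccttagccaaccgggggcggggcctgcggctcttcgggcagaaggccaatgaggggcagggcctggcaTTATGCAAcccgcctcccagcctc
Per3: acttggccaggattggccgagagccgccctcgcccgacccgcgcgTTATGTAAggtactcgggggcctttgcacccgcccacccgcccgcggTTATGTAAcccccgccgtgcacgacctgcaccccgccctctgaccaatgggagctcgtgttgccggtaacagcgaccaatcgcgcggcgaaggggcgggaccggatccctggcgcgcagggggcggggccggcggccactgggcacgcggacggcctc

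Ciart holds 3 E-boxes, 116, 58 and 44 bases before the start. Per1 holds 1 E-box at 166 and 1 D-box at 24 bases, and Per3 holds D-boxes at 205 and 158 bases. Of the 16 clock genes matched by symbol, 5 (31.2%) hold CACGTG on either strand, as do 6.86% of the 27025 genes of the promoter table. CACGTG was in 4 of the 9 matched members called higher and in 1 of the 5 called lower. TTATGNAA was found in 2 of the 16 and in 3.63% of all genes. AGGTCA, the core of the element bound by ROR and REV-ERB receptors, was found in 4 of the 16 and in 15.8% of all genes. A match describes the letters of these windows and is not a binding site.

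The activators were lower. Arntl (mm9 chr7:120350979-120457636) was at 0.491, 0.395 and 0.678 RPKM in S10 and 7.30 to 10.2 RPKM in C0, median 8.46 (log2 fold change -3.51 ± 0.20 (SE), adjusted p = 4.87e-23). Npas2, a partner of ARNTL, was at 0.0256, 0.0105 and 0.0122 RPKM in S10 and 1.75 to 2.67 RPKM in C0, median 2.05 (log2 fold change -3.15 ± 0.22 (SE), adjusted p = 3.86e-18). Neither overlapped, and Npas2 was under the detection threshold in S10. Clock, the main partner of ARNTL, was at 4.31, 4.21 and 4.30 RPKM in S10 and 4.70 to 6.10 RPKM in C0, median 5.19, below every C0 liver but under the fold threshold (log2 fold change -0.28, adjusted p = 0.044). Against them, the repressors Per2 and Per3 were higher in each S10 liver than in any C0 liver. Per2 was at 6.10, 6.73 and 5.66 RPKM in S10 and 0.466 to 0.996 RPKM in C0, median 0.739 (log2 fold change 2.72, adjusted p = 7.69e-12). Per3 was at 2.44, 2.33 and 2.52 RPKM in S10 and 0.101 to 0.175 RPKM in C0, median 0.116 (log2 fold change 2.84, adjusted p = 6.26e-21). Ciart (Gm129), which represses ARNTL with CLOCK, was at 2.68, 3.22 and 2.58 RPKM in S10 and 0.0137 to 0.743 RPKM in C0, median 0.143 (log2 fold change 2.83, adjusted p = 1.44e-08). Cry1, a further repressor, was lower, at 2.86, 2.55 and 2.09 RPKM in S10 and 4.23 to 6.92 RPKM in C0, median 5.88 (log2 fold change -1.11, adjusted p = 3.67e-05). Cry2 was at 4.37, 4.54 and 4.53 RPKM in S10 and 2.72 to 4.00 RPKM in C0, median 2.96, a log2 difference of 0.48 that stayed under the fold threshold.

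Per1 was at 5.47, 6.81 and 3.90 RPKM in S10 and 0.0417 to 3.65 RPKM in C0, median 1.61, and all S10 livers were above all C0 livers (log2 fold change 2.34, adjusted p = 9.20e-05). The size of this difference depended on the resting livers, at 4.03 (log2) against C0 replicates 1 to 3 and 0.64 against replicates 4 to 6, where it was not called (adjusted p = 0.21). For Nr1d1 (REV-ERBα, a repressor of Arntl) the S10 values were 10.6, 13.1 and 9.04 RPKM, with 0.528 to 9.69 RPKM in C0, median 3.55. Its log2 difference was 1.89 against all 6 C0 livers (adjusted p = 0.0015), 3.21 against replicates 4 to 6 and 0.58 against replicates 1 to 3 (adjusted p = 0.50), and S10 replicate 3 fell inside the C0 range. Against C0 replicates 7 to 9, a set compared after seeing the data, it was −0.0043. Its paralog Nr1d2 was at 18.1, 18.5 and 14.5 RPKM in S10 and 2.01 to 4.03 RPKM in C0, median 2.80 and did not overlap (log2 fold change 2.51, adjusted p = 2.68e-12). The activating receptor Rora was at 3.78, 3.92 and 4.42 RPKM in S10 and 4.69 to 7.65 RPKM in C0, median 6.24 (log2 fold change -0.53, adjusted p = 0.0042), a call that was lost against C0 replicates 1 to 3 (log2 difference -0.36, adjusted p = 0.15) and without S10 replicate 1 (−0.49) or C0 replicate 6 (−0.46).

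The output factors bind D-boxes. Dbp (mm9 chr7:52960458-52965525) was at 22.6, 23.3 and 19.0 RPKM in S10 and 0.108 to 0.407 RPKM in C0, median 0.261 (log2 fold change 5.45 ± 0.33 (SE), adjusted p = 2.99e-21), the largest increase of any clock gene. Tef was at 17.5, 18.8 and 17.8 RPKM in S10 and 2.10 to 3.52 RPKM in C0, median 2.91 (log2 fold change 2.58, adjusted p = 2.37e-13). For both, the S10 livers lay close together and far above C0. Hlf was at 6.12, 7.04 and 6.48 RPKM in S10 and 3.35 to 5.79 RPKM in C0, median 4.33 (log2 fold change 0.55, adjusted p = 0.028), a small increase whose call was lost against C0 replicates 4 to 6 (log2 difference 0.31, adjusted p = 0.34), with median scaling, and without S10 replicate 2 or 3 or C0 replicate 1 or 2 (log2 differences 0.50, 0.56, 0.50 and 0.48). Nfil3, their antagonist, was at 15.2, 15.9 and 14.6 RPKM in S10 and 18.3 to 26.2 RPKM in C0, median 24.5, with C0 replicate 3 lowest (log2 fold change -0.62, adjusted p = 0.013). Against C0 replicates 1 to 3 this was not called (log2 difference -0.53, adjusted p = 0.076). The basic helix-loop-helix repressor Bhlhe41 was at 0.644, 0.746 and 0.419 RPKM in S10 and 0.0240 to 0.0625 RPKM in C0, median 0.0273 (log2 fold change 1.56, adjusted p = 1.22e-07). Its relative Bhlhe40 was at 19.7, 20.7 and 17.2 RPKM in S10 and 5.96 to 15.5 RPKM in C0, median 8.90 (log2 fold change 1.04, adjusted p = 0.0019). Bhlhe40 was not called against C0 replicates 4 to 6 (log2 difference 0.55, adjusted p = 0.16).

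Across the other groups, Arntl had medians of 1.62 RPKM in C4, 3.62 in S4, 0.716 in X10, 8.03 in S20 and 8.11 in S48. Dbp had medians of 32.2 RPKM in C4, 0.873 in S4, 6.76 in X10, 0.579 in S20 and 0.327 in S48. At the same ZT6, Dbp was thus at 8.36 to 45.8 RPKM in unoperated livers and 0.415 to 1.36 RPKM 4 h after sham surgery, without overlap. By the study's design those unoperated livers came from another experimental period, so period and surgery cannot be told apart there. Against S4, 9 of the 19 clock genes were called higher in S10 and 3 lower (22.7% and 5.13% of all genes), and against S20, 9 higher and 4 lower (5.79% and 5.42% of all genes). S10 and S4 differed for Dbp by 4.37 and S10 and S20 by 4.69 on the log2 scale (adjusted p = 9.42e-16 and 8.13e-15). Each of these comparisons changes the time of day as well as the hours after surgery.

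**Figure D3:**
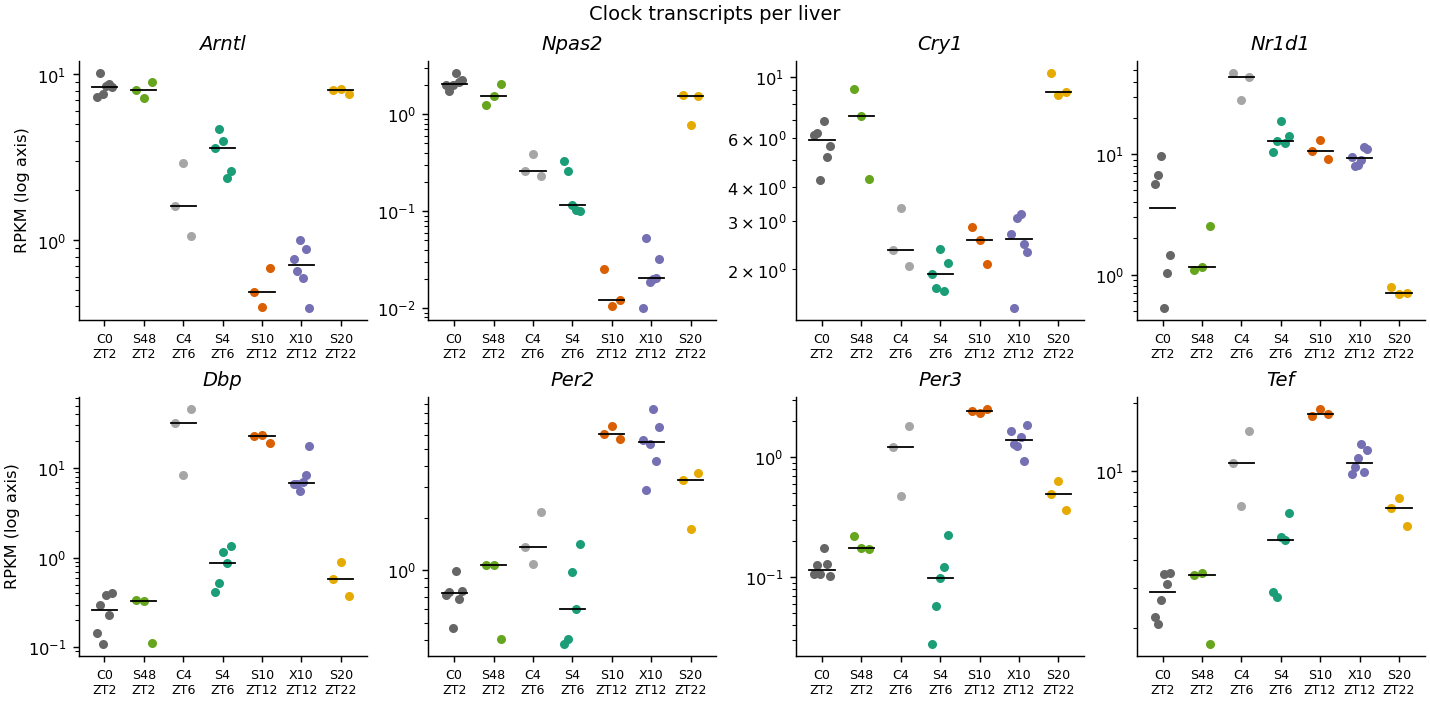
RPKM on log axes of 8 clock transcripts in each liver of C0, S48, C4, S4, S10, X10 and S20, ordered by ZT, with 1 point per liver, the black line at the group's median and values under 0.01 drawn at 0.01. In S10, Arntl and Npas2 lay below every C0 liver and Dbp, Per2, Per3 and Tef above every C0 liver.

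The acute-phase list was chosen with earlier results of these data known, and it holds the constitutive Saa4. Of its 32 transcripts listed as rising, 29 were called higher in S10, 1 was called lower (Hamp2) and 2 were not called (Cp and Cfb). Their median log2 fold change was 2.50 against 0.07 over all genes, and with median scaling 28 were called higher. Together they took 17.1% to 20.6% of all RPKM in the S10 livers and 1.92% to 2.44% in C0. For comparison, they took 10.3% to 18.6% in S4, 13.3% to 21.8% in X10, 11.7% to 13.9% in S20 and 10.9% to 13.5% in S48. In the unoperated C4 livers they took 1.79% to 3.15%. Near-identical copies (Saa1 and Saa2, Orm1 to Orm3, Hamp and Hamp2) can share reads, so the sum is firmer than the separate values.

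TTCCNGGAA, the symmetric element bound by STAT factors, was found on either strand within 250 bases before the start in 2 of the 25 matched members (8.0%) and in 1.09% of all genes. These are Fga, which encodes the fibrinogen alpha chain (chr3:83025903-83026152, plus strand), 234 bases before the start, and Steap4, a metalloreductase (chr5:7960222-7960471, plus strand), 116 bases before it. Both upstream sequences (RefSeq, GRCm38.p6) are shown since both transcripts were called higher, with this element in capitals. The elements searched for the clock genes were also searched here. TTATGNAA was found in 2 of the 25 and in 3.63% of all genes. AGGTCA was found in 8 of the 25 and in 15.8% of all genes, and CACGTG in none of the 25 and in 6.86%. A share above that of all genes was thus not particular to the STAT element.

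Fga: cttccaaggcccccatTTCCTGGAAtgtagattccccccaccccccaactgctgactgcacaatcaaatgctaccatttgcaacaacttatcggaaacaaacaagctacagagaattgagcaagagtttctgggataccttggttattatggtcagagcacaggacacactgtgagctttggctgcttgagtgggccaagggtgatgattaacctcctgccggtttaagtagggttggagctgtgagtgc
Steap4: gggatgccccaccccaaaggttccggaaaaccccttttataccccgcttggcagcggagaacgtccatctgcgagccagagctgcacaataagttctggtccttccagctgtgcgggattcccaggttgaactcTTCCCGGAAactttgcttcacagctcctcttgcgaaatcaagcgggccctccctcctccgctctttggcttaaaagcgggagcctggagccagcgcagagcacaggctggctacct

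Serum amyloids and pentraxins (6 of 6 called higher) had a median log2 fold change of 5.35. Saa1 was at 15634, 15371 and 17967 RPKM in S10 and 44.1 to 115 RPKM in C0, median 60.0 (log2 fold change 8.00 ± 0.64 (SE), adjusted p = 3.18e-16). Saa3, which is made by macrophages as well as hepatocytes, was at 379, 389 and 2090.2 RPKM in S10 and 2.15 to 6.11 RPKM in C0, median 4.62 (log2 fold change 7.26 ± 0.85 (SE), adjusted p = 2.73e-10). Saa3 was far higher in S10 replicate 3 than in replicates 1 and 2, whereas Saa1 was alike in all 3 S10 livers. Saa4, a constitutive serum amyloid, was at 216, 239 and 263 RPKM in S10 and 82.9 to 140.3 RPKM in C0, median 103 (log2 fold change 1.17, adjusted p = 9.02e-04). The pentraxin Apcs (serum amyloid P) was at 874, 859 and 1049 RPKM in S10 and 60.4 to 113 RPKM in C0, median 83.5 (log2 fold change 3.45, adjusted p = 2.79e-14). Crp (C-reactive protein) was at 367, 419 and 418 RPKM in S10 and 188 to 224 RPKM in C0, median 211 (log2 fold change 0.94, adjusted p = 1.79e-07), a modest increase with no overlap.

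Carriers and coagulation proteins were higher in each S10 liver. Hp (haptoglobin, which binds free haemoglobin) was at 9959, 10397 and 11423 RPKM in S10 and 1169 to 1405 RPKM in C0, median 1354 (log2 fold change 3.01, adjusted p = 8.18e-16). Hpx (hemopexin, which binds haem) was at 9093, 9076 and 11353 RPKM in S10 and 1659 to 2007 RPKM in C0, median 1852 (log2 fold change 2.42, adjusted p = 3.07e-12). Orm2 (orosomucoid) was at 417, 400.5 and 514 RPKM in S10 and 26.4 to 41.6 RPKM in C0, median 34.7 (log2 fold change 3.70, adjusted p = 4.38e-09). The 3 fibrinogen chains were all higher. Fga was at 8023, 7867 and 8295 RPKM in S10 and 1273 to 1648 RPKM in C0, median 1449. Fgb was at 9642, 9708 and 11529 RPKM in S10 and 1862 to 2521 RPKM in C0, median 2235. Fgg was at 6681, 6567 and 7114 RPKM in S10 and 1519 to 2087 RPKM in C0, median 1801. Their log2 fold changes were 2.48, 2.23 and 1.93, and no S10 liver overlapped with C0 for any chain.

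Among inhibitors and antimicrobial proteins, Serpina3n, a serine protease inhibitor, was at 3630.0, 4074 and 4573 RPKM in S10 and 97.2 to 163 RPKM in C0, median 118 (log2 fold change 5.05 ± 0.24 (SE), adjusted p = 2.07e-26). Itih4, an inter-alpha-trypsin inhibitor heavy chain, was at 2858, 3070.4 and 3084 RPKM in S10 and 329.7 to 416 RPKM in C0, median 375 (log2 fold change 3.01, adjusted p = 9.32e-24). Complement C3 was at 2582, 2829.8 and 3168 RPKM in S10 and 896 to 1165 RPKM in C0, median 1102 (log2 fold change 1.42, adjusted p = 9.15e-12). All 3 were even across the S10 livers, whereas Il1rn and Cd14 were not. Il1rn, the interleukin-1 receptor antagonist, was at 1.89, 2.24 and 7.60 RPKM in S10 and 0.131 to 0.433 RPKM in C0, median 0.219 (log2 fold change 2.82, adjusted p = 7.24e-05). Cd14, the lipopolysaccharide co-receptor, was at 1.34, 0.927 and 6.38 RPKM in S10 and 0.289 to 0.688 RPKM in C0, median 0.375 (log2 fold change 1.84, adjusted p = 0.016). Its call was lost without S10 replicate 3 (log2 difference 1.08, adjusted p = 0.25) and against C0 replicates 1 to 3 (1.73, adjusted p = 0.064) or 7 to 9 (0.76, adjusted p = 0.405). Steap4 was at 125, 132 and 196 RPKM in S10 and 17.9 to 28.7 RPKM in C0, median 18.9 (log2 fold change 2.82, adjusted p = 2.56e-07).

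The iron hormone hepcidin is encoded by Hamp and Hamp2 in mice. Hamp was at 1124, 1191 and 1266 RPKM in S10 and 177 to 1264 RPKM in C0, median 655 and overlapped between the groups (log2 fold change 1.18, adjusted p = 0.024), and its call was lost against C0 replicates 4 to 6 (log2 difference 0.82, adjusted p = 0.24), with median scaling and without any 1 of the S10 livers (log2 differences 1.14 to 1.22) and without C0 replicate 2 (0.87) or 3 (1.03). Hamp2 was at 12.6, 8.28 and 7.67 RPKM in S10 and 25.9 to 62.0 RPKM in C0, median 29.1 (log2 fold change -1.92, adjusted p = 6.15e-04), so the near-identical copies had opposite signs. Ceruloplasmin (Cp), a copper oxidase, was at 114, 111 and 212 RPKM in S10 and 102 to 111 RPKM in C0, median 105, with S10 replicate 2 inside the C0 range and replicate 3 far above it. Slc39a14, a zinc and iron importer, was at 38.1, 39.7 and 38.0 RPKM in S10 and 6.91 to 16.5 RPKM in C0, median 10.8 (log2 fold change 1.83, adjusted p = 3.98e-09). The zinc exporter Slc30a1 was at 11.5, 12.3 and 12.9 RPKM in S10 and 3.23 to 6.38 RPKM in C0, median 4.03 (log2 fold change 1.41, adjusted p = 7.64e-08). Neither overlapped between the groups.

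Of 12 secreted proteins known to fall in the acute phase, 4 were called lower (6 with median scaling) and 2 higher, with a median log2 fold change of -0.34. Albumin (Alb) was at 23988, 23378 and 20720.0 RPKM in S10 and 32273 to 38924 RPKM in C0, median 37000.5 (log2 fold change -0.68, adjusted p = 0.001). Transthyretin (Ttr) was at 2341, 2208 and 2126 RPKM in S10 and 3768 to 5436 RPKM in C0, median 4373 (log2 fold change -1.02, adjusted p = 2.67e-07). Rbp4, the retinol carrier, was at 1158, 1195 and 982 RPKM in S10 and 1462 to 1884 RPKM in C0, median 1728 (log2 fold change -0.63, adjusted p = 3.03e-06). None of the 3 overlapped between groups. Serpina6, which encodes corticosteroid-binding globulin, was at 25.2, 25.2 and 16.3 RPKM in S10 and 46.9 to 72.2 RPKM in C0, median 61.5 (log2 fold change -1.45, adjusted p = 7.60e-04). Apoa4, an apolipoprotein, was higher and not lower, at 537, 302 and 378 RPKM in S10 and 59.9 to 118 RPKM in C0, median 101 (log2 fold change 2.05, adjusted p = 4.19e-05).

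**Figure D4:**
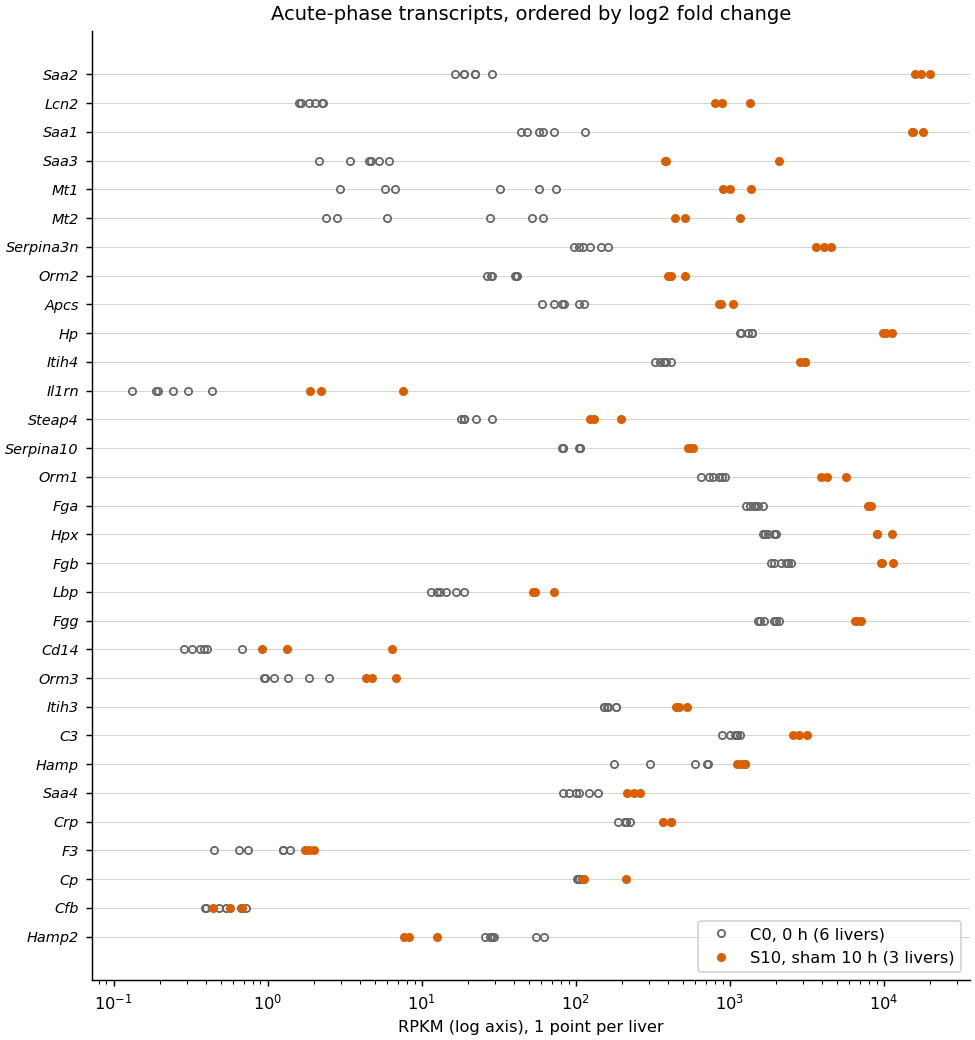
RPKM on a log axis of 31 of the 32 acute-phase transcripts, ordered by log2 fold change, in each of 6 C0 livers (open points) and 3 S10 livers (filled points). The S10 livers lay above all C0 livers for Saa2, Lcn2 and the 3 fibrinogen chains, overlapped with them for Hamp and Cfb, and lay below them for Hamp2.

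In the cytokine pathway upstream of these proteins, 10 of 22 members were called higher and 2 lower (median log2 fold change 0.78). Socs3, the feedback inhibitor that STAT3 induces, was at 10.6, 12.4 and 14.2 RPKM in S10 and 0.321 to 1.07 RPKM in C0, median 0.826 (log2 fold change 3.67 ± 0.36 (SE), adjusted p = 6.35e-13). Stat3 itself was at 19.4, 21.7 and 19.4 RPKM in S10 and 7.41 to 9.26 RPKM in C0, median 7.96 (log2 fold change 1.28, adjusted p = 9.35e-10). Both were even across the S10 livers and did not overlap with C0. Of the receptors, Il6st (gp130, the shared signal chain) was at 25.0, 26.7 and 26.3 RPKM in S10 and 12.2 to 19.0 RPKM in C0, median 14.6 (log2 fold change 0.80, adjusted p = 3.59e-06). Osmr, the oncostatin M receptor, was at 0.840, 0.813 and 0.963 RPKM in S10 and 0.0766 to 0.202 RPKM in C0, median 0.147 (log2 fold change 1.51, adjusted p = 6.53e-09). Stat5b, which acts downstream of growth hormone, was lower, at 4.95, 5.31 and 5.30 RPKM in S10 and 10.3 to 14.8 RPKM in C0, median 11.6 (log2 fold change -1.16, adjusted p = 2.43e-08). Socs2, a growth hormone feedback inhibitor, was at 5.65, 6.24 and 3.04 RPKM in S10 and 0.609 to 1.96 RPKM in C0, median 1.09 (log2 fold change 1.92, adjusted p = 0.0063). None of these 4 overlapped with C0. Bcl3, a nuclear co-regulator of NF-kappaB, was at 15.1, 17.2 and 13.0 RPKM in S10 and 3.33 to 6.21 RPKM in C0, median 5.10 (log2 fold change 1.58, adjusted p = 2.26e-06). Against C0 replicates 7 to 9 the calls of Socs2 and Bcl3 were lost (log2 differences 0.86 and 0.68, adjusted p = 0.30 and 0.0578).

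Among 19 chemokines, 3 were called higher and 3 lower, beside 14.8% and 10.2% of all genes. Without S10 replicate 1 the chemokine counts were 6 and 1, and without replicate 2, 5 were higher. Against C0 replicates 7 to 9, 1 was higher and 6 lower. Cxcl1, a neutrophil attractant, was at 23.2, 25.5 and 62.4 RPKM in S10 and 1.03 to 3.90 RPKM in C0, median 1.67 (log2 fold change 3.98, adjusted p = 3.92e-07). Cxcl12 was at 41.9, 44.7 and 42.7 RPKM in S10 and 23.8 to 29.9 RPKM in C0, median 27.5 (log2 fold change 0.65, adjusted p = 0.0024). Ccl9 was lower, at 9.50, 8.92 and 10.5 RPKM in S10 and 19.3 to 25.9 RPKM in C0, median 23.0 (log2 fold change -1.20, adjusted p = 1.55e-05). The S10 livers were apart from C0 for all 3, with Cxcl1 highest in replicate 3. The call of Cxcl1 was lost against C0 replicates 7 to 9 (log2 difference 0.79, adjusted p = 0.372) and that of Cxcl12 with median scaling (0.48). The summed level of 11 neutrophil markers was 2.89 to 14.0 RPKM in S10 and 0.412 to 1.64 RPKM in C0, with 4 of the 10 tested called higher and none lower, and with the defining marker Ly6g listed at 0 in all 9 livers. S100a8, a calprotectin subunit, was at 1.64, 1.15 and 5.80 RPKM in S10 and 0.0766 to 0.945 RPKM in C0, median 0.228 (log2 fold change 2.24, adjusted p = 0.0055). Its partner S100a9 was at 2.69, 0.962 and 6.48 RPKM in S10 and 0.222 to 0.674 RPKM in C0, median 0.316 (log2 fold change 2.26, adjusted p = 0.0024). Both were highest in S10 replicate 3, and both calls were lost without that liver (log2 difference 1.61 and 1.64). The call of S100a8 was also lost against C0 replicates 1 to 3 (1.76, adjusted p = 0.099). Against C0 replicates 7 to 9 alone the signs turned (log2 difference −0.18 and −0.75). The part of these cells in the inflammatory transcripts above was not tested.

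Transcripts of other liver cell types were mostly lower or not called. Of 12 Kupffer cell and macrophage markers, 1 (Marco, a scavenger receptor) was called higher and none lower, and their summed level was 30.4 to 42.7 RPKM in S10 and 25.5 to 70.9 RPKM in C0. Marco was at 1.75, 1.37 and 3.29 RPKM in S10 and 0.272 to 1.00 RPKM in C0, median 0.737 (log2 fold change 1.37, adjusted p = 0.042), a call lost without S10 replicate 3 (log2 difference 1.04), S10 replicate 1 (1.45) or C0 replicate 4 or 5 (1.22 and 1.27), against C0 replicates 1 to 3 (1.08, adjusted p = 0.21) or 7 to 9 (0.25, adjusted p = 0.788) and with median scaling. Of 10 stellate cell markers 5 were called lower and none higher, and of 10 endothelial cell markers 4 lower and none higher. With median scaling 7 and 6 were lower, and against C0 replicates 4 to 6, 3 and 1. Reln, an extracellular protein of stellate cells, was at 0.690, 0.607 and 0.888 RPKM in S10 and 1.28 to 2.29 RPKM in C0, median 1.80 (log2 fold change -1.06, adjusted p = 1.69e-05). Dcn (decorin) was at 29.6, 24.7 and 35.7 RPKM in S10 and 42.3 to 61.1 RPKM in C0, median 49.5 (log2 fold change -0.74, adjusted p = 8.52e-04). Tek, the endothelial angiopoietin receptor, was at 0.551, 0.618 and 0.594 RPKM in S10 and 0.928 to 1.52 RPKM in C0, median 1.11 (log2 fold change -0.75, adjusted p = 6.98e-04). For these 3 no S10 liver reached the C0 range. B cell markers had 3 of 6 called lower and none higher, with sums of 0.797 to 1.16 RPKM in S10 and 3.59 to 11.9 RPKM in C0. All 6 were lower with median scaling, 5 against C0 replicates 1 to 3 and 1 against replicates 4 to 6. Ighm (immunoglobulin mu) was at 0.916, 0.404 and 0.853 RPKM in S10 and 2.40 to 10.1 RPKM in C0, median 5.54 (log2 fold change -2.59, adjusted p = 3.05e-05). T and NK cell markers had 3 of 5 called lower (1 against C0 replicates 4 to 6) and none higher. Cd4 was at 0.0531, 0.0374 and 0.0868 RPKM in S10 and 0.272 to 0.772 RPKM in C0, median 0.513 (log2 fold change -1.30, adjusted p = 3.55e-09). Cholangiocyte markers had 3 of 6 called lower and none higher. Of the 9 pancreas markers only Cela1 passed the filter, at 5.46, 4.92 and 5.71 RPKM in S10 and 12.5 to 29.2 RPKM in C0, median 21.0 (log2 fold change -1.86, adjusted p = 6.66e-09).

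Of 28 transcripts of the endoplasmic reticulum (ER) and unfolded protein response, which raises folding capacity in secretory cells, 20 were called higher and 1 lower, with a median log2 fold change of 0.76. This count was 14 with median scaling, 9 against C0 replicates 1 to 3 and 21 against replicates 4 to 6. Creld2, an ER chaperone, was at 143, 182 and 183 RPKM in S10 and 10.4 to 102 RPKM in C0, median 19.1 (log2 fold change 2.88, adjusted p = 8.55e-06). Hsp90b1 (GRP94) was at 456, 482 and 655 RPKM in S10 and 133 to 345 RPKM in C0, median 182 (log2 fold change 1.45, adjusted p = 2.43e-06). Dnajb11, a co-chaperone of BiP, was at 73.4, 80.0 and 84.9 RPKM in S10 and 21.0 to 51.5 RPKM in C0, median 29.7 (log2 fold change 1.37, adjusted p = 2.35e-07). These were higher in all S10 livers than in any C0 liver. Hspa5 (BiP, the central ER chaperone) was at 492, 479 and 399 RPKM in S10 and 129 to 551 RPKM in C0, median 202 and overlapped (log2 fold change 1.04, adjusted p = 0.0091), and against C0 replicates 1 to 3 it was not called (log2 difference 0.31, adjusted p = 0.53). Xbp1, the factor spliced by the sensor IRE1, was at 104, 107 and 94.2 RPKM in S10 and 30.1 to 63.8 RPKM in C0, median 41.6 (log2 fold change 1.27, adjusted p = 9.05e-06). Derl3, which moves misfolded proteins out of the ER, was at 10.3, 15.1 and 38.7 RPKM in S10 and 0.291 to 7.32 RPKM in C0, median 1.00 (log2 fold change 3.76, adjusted p = 4.85e-05), highest in S10 replicate 3 and, among C0, in replicate 1. Sdf2l1, a partner of ER chaperones, was at 85.8, 99.1 and 95.5 RPKM in S10 and 16.8 to 68.5 RPKM in C0, median 27.5 (log2 fold change 1.62, adjusted p = 1.86e-04). Against C0 replicates 1 to 3 the log2 differences of Creld2, Xbp1 and Sdf2l1 were 1.82, 0.84 and 1.02.

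Cytosolic heat shock transcripts differed among the S10 livers. Of 22 members 4 were called higher and 1 lower, beside 14.8% and 10.2% of all genes. The higher count was 11 without S10 replicate 3 and 2 without replicate 1 or replicate 2. It was 7 against C0 replicates 4 to 6 and with the replicate block, and 11 against C0 replicates 7 to 9. Hspa8, the constitutive Hsc70, was at 327, 286 and 136 RPKM in S10 and 99.1 to 188 RPKM in C0, median 112 (log2 fold change 0.93, adjusted p = 0.0051), and the call was lost without S10 replicate 1 or 2 (log2 differences 0.69 and 0.79) and against C0 replicates 1 to 3 (0.74, adjusted p = 0.068) or 7 to 9 (0.49, adjusted p = 0.198). Hspa1b, the inducible Hsp70, was at 6.58, 6.97 and 2.28 RPKM in S10 and 1.61 to 2.75 RPKM in C0, median 1.85 and was not called (log2 fold change 1.12, adjusted p = 0.074), but was called without S10 replicate 3 (log2 difference 1.61). Dnajb1, an Hsp40, was at 11.4, 11.5 and 6.51 RPKM in S10 and 4.06 to 5.73 RPKM in C0, median 5.08 (log2 fold change 0.90, adjusted p = 0.001). For all 3 the lowest S10 liver was replicate 3. Cirbp, the cold-inducible RNA-binding protein, was lower, at 2.04, 1.76 and 2.89 RPKM in S10 and 3.80 to 5.14 RPKM in C0, median 4.41 (log2 fold change -0.96, adjusted p = 3.22e-04), without overlap.

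**Figure D5:**
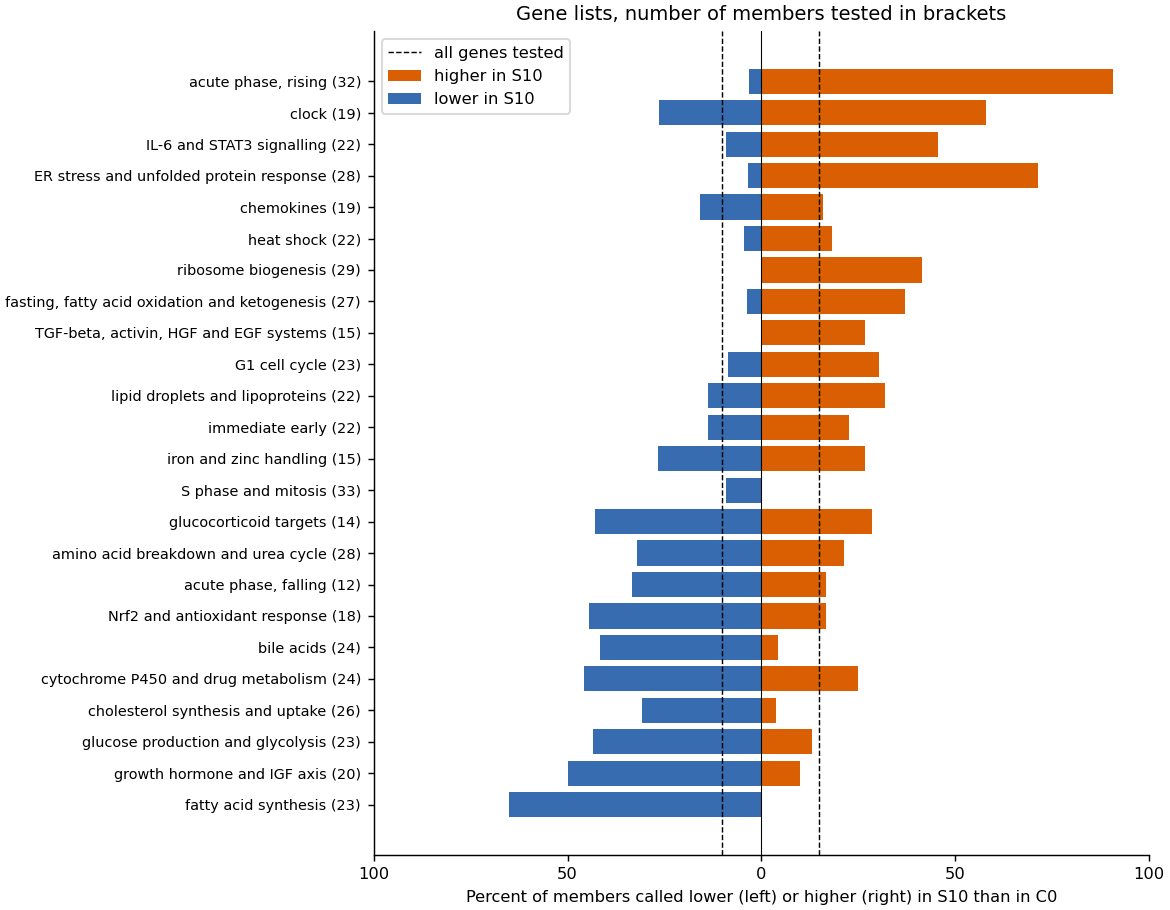
Percent of the tested members of 24 gene lists called higher (orange, to the right) or lower (blue, to the left) in S10 than in C0, ordered by median log2 fold change, with the number of members tested in brackets. Dashed lines mark 14.8% higher and 10.2% lower over all 15396 genes, and acute-phase transcripts (29 of 32 higher) and fatty acid synthesis (15 of 23 lower) stand at the 2 ends.

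Of 23 transcripts of fatty acid synthesis, none was called higher and 15 were called lower (median log2 fold change -0.75). Against C0 replicates 1 to 3 the lower count was 7 and against replicates 4 to 6 it was 15. Against replicates 7 to 9, 5 were called higher and 8 lower. Thrsp, a regulator of lipogenesis, was at 24.4, 26.5 and 31.5 RPKM in S10 and 95.4 to 369 RPKM in C0, median 241 (log2 fold change -2.92, adjusted p = 9.18e-06). Acly, which makes cytosolic acetyl-CoA from citrate, was at 16.8, 16.9 and 20.4 RPKM in S10 and 35.3 to 90.1 RPKM in C0, median 72.2 (log2 fold change -1.85, adjusted p = 1.30e-05). Srebf1, the lipogenic transcription factor SREBP1, was at 5.85, 6.20 and 6.92 RPKM in S10 and 17.2 to 21.0 RPKM in C0, median 18.4 (log2 fold change -1.53, adjusted p = 8.10e-04). No S10 liver overlapped with C0 for these 3. Fasn (fatty acid synthase) was at 17.2, 17.8 and 21.3 RPKM in S10 and 20.1 to 40.0 RPKM in C0, median 35.0 and was not called (log2 fold change -0.75, adjusted p = 0.11), with replicate 3 inside the C0 range. Elovl5, an elongase of polyunsaturated fatty acids, was at 84.4, 71.9 and 63.2 RPKM in S10 and 142 to 234 RPKM in C0, median 193 (log2 fold change -1.38, adjusted p = 5.25e-05), without overlap.

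In the cholesterol pathway 8 of 26 transcripts were called lower (12 with median scaling) and 1 higher (5 against C0 replicates 7 to 9). Pmvk (phosphomevalonate kinase) was at 10.8, 9.69 and 14.0 RPKM in S10 and 28.6 to 56.4 RPKM in C0, median 49.7, with C0 replicate 1 lowest (log2 fold change -2.00, adjusted p = 4.02e-06). Sc5d, a desaturase near the end of the pathway, was at 73.1, 68.2 and 84.2 RPKM in S10 and 182 to 262 RPKM in C0, median 228 (log2 fold change -1.60, adjusted p = 4.28e-06). Insig2, which retains SREBP in the ER, was at 29.8, 26.9 and 30.4 RPKM in S10 and 75.5 to 123 RPKM in C0, median 99.4 (log2 fold change -1.76, adjusted p = 4.06e-08). All 3 were lower in every S10 liver.

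Bile acid synthesis and transport had 10 of 24 transcripts called lower and 1 higher (13 and none with median scaling). Against C0 replicates 7 to 9, 5 were called lower and 4 higher. Abcb11, the bile salt export pump, was at 38.4, 38.0 and 33.7 RPKM in S10 and 124 to 169 RPKM in C0, median 131 (log2 fold change -1.92 ± 0.22 (SE), adjusted p = 7.84e-11), and its S10 and C0 livers were far apart. Cyp7a1, the rate-limiting enzyme of bile acid synthesis, was at 24.4, 22.0 and 14.4 RPKM in S10 and 4.72 to 42.9 RPKM in C0, median 17.2 and was not called (log2 fold change 0.30, adjusted p = 0.73). Its difference was 1.23 (log2) against C0 replicates 1 to 3 and -0.64 against replicates 4 to 6, called against neither set (adjusted p = 0.16 and 0.48).

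Glucose uptake, glycolysis and glycogen transcripts had 8 of 13 called lower and none higher, whereas 3 of 10 glucose production transcripts were called higher and 2 lower. The first were, against C0 replicates 1 to 3, 3 higher and 6 lower and the second 4 higher and 2 lower, and against replicates 4 to 6 the first were none higher and 9 lower and the second 2 higher and 5 lower. Over both lists the 3 higher calls became 5 or 6 without 1 of C0 replicates 4 to 6 and 6 with the replicate block. Pygl, the liver glycogen phosphorylase, was at 41.4, 40.8 and 36.2 RPKM in S10 and 117 to 134 RPKM in C0, median 125 (log2 fold change -1.65, adjusted p = 2.91e-12). Slc2a2, the glucose transporter GLUT2, was at 31.6, 28.9 and 25.1 RPKM in S10 and 52.9 to 64.8 RPKM in C0, median 59.4 (log2 fold change -1.05, adjusted p = 4.07e-04). Both were lower in all 3 S10 livers than in any C0 liver. Ppp1r3b, another glycogen-targeting subunit, was at 13.6, 13.5 and 14.8 RPKM in S10 and 24.3 to 98.7 RPKM in C0, median 70.4 (log2 fold change -1.97, adjusted p = 5.07e-08), and its log2 difference was -1.16 against C0 replicates 1 to 3.

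Of 27 transcripts of fasting and fatty acid oxidation, 10 were called higher and 1 lower (median log2 fold change 0.40). Cpt1a, the gate of mitochondrial fatty acid import, was at 97.2, 100.1 and 106 RPKM in S10 and 39.6 to 52.1 RPKM in C0, median 44.8 (log2 fold change 1.16, adjusted p = 2.81e-06). Fgf21, a fasting hormone of the liver, was at 4.01, 2.97 and 1.76 RPKM in S10 and 0.180 to 0.730 RPKM in C0, median 0.324 (log2 fold change 2.32, adjusted p = 0.0025). Both lay above all C0 livers, Cpt1a evenly and Fgf21 with more spread. Pdk4, which blocks glucose oxidation, was at 5.39, 9.27 and 7.04 RPKM in S10 and 2.97 to 7.85 RPKM in C0, median 4.40 and was not called (log2 fold change 0.61, adjusted p = 0.46). Angptl4, a lipoprotein lipase inhibitor, was at 61.3, 67.5 and 57.4 RPKM in S10 and 11.7 to 47.9 RPKM in C0, median 32.4 (log2 fold change 1.23, adjusted p = 0.0079), and was not called against C0 replicates 4 to 6 (log2 difference 0.42, adjusted p = 0.46). Of 22 lipid droplet and lipoprotein transcripts 7 were called higher and 3 lower. Plin2, the coat protein of lipid droplets, was at 210.3, 225 and 166 RPKM in S10 and 55.1 to 117 RPKM in C0, median 87.2 (log2 fold change 1.25, adjusted p = 2.14e-04). G0s2, an inhibitor of the lipase ATGL, was at 128, 174 and 114 RPKM in S10 and 10.4 to 43.6 RPKM in C0, median 24.7 (log2 fold change 2.57, adjusted p = 3.52e-04). Cidec, which fuses droplets, was at 3.54, 2.46 and 1.26 RPKM in S10 and 0.0937 to 0.266 RPKM in C0, median 0.171 (log2 fold change 2.59, adjusted p = 1.24e-04). None of these 3 overlapped with C0. Against C0 replicates 1 to 3 the log2 difference of Plin2 was 0.83.

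The growth hormone axis had 10 of 20 transcripts called lower and 2 higher (5 lower against C0 replicates 4 to 6). Ghr, the growth hormone receptor, was at 20.8, 20.3 and 17.2 RPKM in S10 and 48.8 to 54.5 RPKM in C0, median 51.7 (log2 fold change -1.40 ± 0.14 (SE), adjusted p = 3.22e-12), and the C0 livers were close together. Igf1 was at 63.3, 56.8 and 51.4 RPKM in S10 and 44.6 to 59.7 RPKM in C0, median 51.2 and was not called (log2 fold change 0.15, adjusted p = 0.42, and −0.03 with median scaling). Among cytochrome P450 and related transcripts, 11 of 24 were called lower and 6 higher. Cyp3a11 was at 813, 698 and 488 RPKM in S10 and 1448 to 2034 RPKM in C0, median 1725 (log2 fold change -1.40, adjusted p = 9.50e-07). Cyp1a2 was at 101, 107 and 94.2 RPKM in S10 and 292 to 339 RPKM in C0, median 319.8 (log2 fold change -1.65, adjusted p = 7.37e-06). Both metabolise foreign compounds, and both were lower in every S10 liver. Cyp17a1, a steroid hydroxylase, was at 28.9, 21.9 and 29.6 RPKM in S10 and 1.35 to 8.35 RPKM in C0, median 3.70 (log2 fold change 2.88, adjusted p = 4.50e-06). Por, the reductase that supplies electrons to these enzymes, was at 98.5, 115 and 97.3 RPKM in S10 and 19.1 to 56.8 RPKM in C0, median 33.0 (log2 fold change 1.61, adjusted p = 3.88e-08). Alas1, the first enzyme of haem synthesis, was at 137, 166 and 125 RPKM in S10 and 9.66 to 87.1 RPKM in C0, median 25.0 (log2 fold change 2.38, adjusted p = 3.70e-05). The last 3 were higher in all S10 livers than in any C0 liver.

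Of 18 Nrf2 and antioxidant transcripts 8 were called lower (5 without S10 replicate 3) and 3 higher. Catalase (Cat), which breaks down hydrogen peroxide, was at 357, 362 and 289.8 RPKM in S10 and 919 to 1109 RPKM in C0, median 1012 (log2 fold change -1.59 ± 0.13 (SE), adjusted p = 3.15e-15). Hmox1, the inducible haem oxygenase, was at 7.31, 6.97 and 4.91 RPKM in S10 and 1.44 to 3.33 RPKM in C0, median 2.15 (log2 fold change 1.47, adjusted p = 2.26e-04). The groups did not overlap for either, in opposite directions. Against C0 replicates 7 to 9 the log2 difference of Hmox1 was 0.17 (adjusted p = 0.76). Amino acid breakdown and the urea cycle had 9 of 28 called lower and 6 higher, which became 12 and 3 with median scaling and 13 and 3 against C0 replicates 4 to 6. Cth, which makes cysteine from cystathionine, was at 29.2, 25.9 and 30.8 RPKM in S10 and 139 to 228 RPKM in C0, median 153 (log2 fold change -2.49, adjusted p = 7.99e-13). Mat1a, which makes S-adenosylmethionine, was at 2437, 2175 and 1934 RPKM in S10 and 288 to 754 RPKM in C0, median 453 (log2 fold change 2.24, adjusted p = 2.03e-10). Arg1 (arginase) was at 1192, 1001 and 997 RPKM in S10 and 507 to 939 RPKM in C0, median 682 (log2 fold change 0.64, adjusted p = 5.84e-04), and against C0 replicates 4 to 6 it was not called (log2 difference 0.29, adjusted p = 0.16). Asns, which makes asparagine, was at 2.28, 3.93 and 3.95 RPKM in S10 and 0.219 to 0.920 RPKM in C0, median 0.337 (log2 fold change 2.34, adjusted p = 2.84e-04).

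Of 23 G1 members 7 were called higher and 2 lower, beside 14.8% and 10.2% of all genes. Of 33 members of S phase and mitosis none was called higher and 3 lower (8 with median scaling). Ccnd1 encodes cyclin D1, a regulator of the G1 phase. Ccnd1 was at 12.1, 11.8 and 7.10 RPKM in S10 and 1.72 to 6.90 RPKM in C0, median 3.34 (log2 fold change 1.53, adjusted p = 5.59e-04). Its log2 difference was 0.83 against C0 replicates 1 to 3 (adjusted p = 0.095) and 2.23 against replicates 4 to 6 (adjusted p = 8.68e-06). Ccne1 (cyclin E1) was at 1.25, 1.42 and 0.986 RPKM in S10 and 0.0126 to 0.109 RPKM in C0, median 0.0520 (log2 fold change 2.24, adjusted p = 1.97e-11). Cdkn1a was at 0.618, 0.542 and 0.971 RPKM in S10 and 1.92 to 45.4 RPKM in C0, median 22.0 (log2 fold change -3.46, adjusted p = 4.31e-06), and against C0 replicates 1 to 3 its difference was -1.39 and not called (adjusted p = 0.12). All 3 S10 livers were below every C0 liver. Wee1, a kinase that delays mitosis and a clock target, was at 2.79, 2.30 and 2.31 RPKM in S10 and 0.311 to 0.479 RPKM in C0, median 0.411 (log2 fold change 2.06, adjusted p = 4.57e-09). Tk1 (thymidine kinase), an S phase enzyme, was at 0.370, 0.319 and 0.651 RPKM in S10 and 2.94 to 4.24 RPKM in C0, median 3.37 (log2 fold change -2.44, adjusted p = 3.24e-13). Wee1 was higher and Tk1 lower in each S10 liver. Ribosome biogenesis had 12 of 29 called higher and none lower (6 higher with median scaling). The methyltransferase Nop2 was at 8.01, 8.43 and 5.67 RPKM in S10 and 3.66 to 4.20 RPKM in C0, median 3.88 (log2 fold change 0.85, adjusted p = 2.32e-05). Of 15 members of the TGF-beta, activin, HGF and EGF systems 4 were called higher and none lower. Inhbe, an activin subunit, was at 38.0, 39.2 and 39.2 RPKM in S10 and 3.64 to 10.8 RPKM in C0, median 5.17 (log2 fold change 2.75, adjusted p = 9.40e-08). Inhbb, a further activin subunit, was at 0.474, 0.696 and 0.562 RPKM in S10 and 0.0987 to 0.298 RPKM in C0, median 0.142 (log2 fold change 0.98, adjusted p = 6.72e-04).

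Of 14 glucocorticoid targets 4 were called higher and 6 lower, and these counts differed between the sets of resting livers. Against C0 replicates 1 to 3, 5 were called higher and none lower, and against replicates 4 to 6, 2 higher and 7 lower. Fkbp5, a chaperone of the glucocorticoid receptor, was at 25.3, 27.2 and 25.3 RPKM in S10 and 2.06 to 19.7 RPKM in C0, median 10.9, with log2 differences of 3.03 and 0.45 against the sets (adjusted p = 5.05e-05 and 0.43). Tsc22d3 (GILZ) was at 8.06, 8.00 and 10.1 RPKM in S10 and 6.89 to 71.6 RPKM in C0, median 34.1, with log2 differences of 0.05 and -2.79 (adjusted p = 0.98 and 4.20e-11). Zbtb16, a zinc finger repressor, was at 0.779, 0.650 and 1.82 RPKM in S10 and 0.881 to 11.5 RPKM in C0, median 5.34, with -0.21 and -3.07 (adjusted p = 0.85 and 2.35e-06). Tsc22d3 and Zbtb16 in S10 were near their levels in C0 replicates 1 to 3, whereas Fkbp5 was above both sets. Against all 6 C0 livers the log2 differences of Fkbp5, Tsc22d3 and Zbtb16 were 1.74, -1.37 and -1.64, and the call of Zbtb16 was lost without S10 replicate 1 or 2 (−1.41 without the latter). For Lpin1, at 7.84, 7.47 and 6.36 RPKM in S10, the log2 differences were 0.37 and -4.25 (adjusted p = 0.77 and 5.88e-08). Its call against all 6 C0 livers (log2 difference -1.94) was lost without any 1 of the S10 livers (−2.00 to −1.85) or of C0 replicates 4 to 6 (−1.56 to −1.43). Of 22 immediate early transcripts 5 were called higher and 3 lower. The higher count was 3 without S10 replicate 2 or C0 replicate 3, 2 against C0 replicates 4 to 6 and 1 against 7 to 9, and the lower count was 1 without S10 replicate 3. Junb, an AP-1 subunit, was at 20.2, 21.7 and 20.0 RPKM in S10 and 3.00 to 12.8 RPKM in C0, median 5.38 (log2 fold change 1.71, adjusted p = 1.50e-04), with a log2 difference of 1.09 against C0 replicates 1 to 3 that was not called (adjusted p = 0.062) and of 0.37 against replicates 7 to 9. Fosl2, a further AP-1 subunit, was at 2.00, 2.41 and 1.95 RPKM in S10 and 0.702 to 1.23 RPKM in C0, median 0.854 (log2 fold change 1.04, adjusted p = 4.52e-05). Dusp1, a phosphatase of MAP kinases, was lower, at 2.00, 2.25 and 1.67 RPKM in S10 and 4.08 to 10.8 RPKM in C0, median 6.51 (log2 fold change -1.58, adjusted p = 2.66e-05).

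X10 shares the 10 h and the ZT12 of S10, and adds the removal of liver tissue. By the study's design the X10 livers came from the experimental period of S10 and from another one. Period thus differs in part, and its share in the differences cannot be told apart. Between them 595 genes (3.86%) were called higher in S10 and 555 (3.6%) lower. The share of all genes without overlap between S10 and X10 was not computed. Statements on overlap with X10 thus have no background and only describe the genes named. Lipid droplet and lipoprotein transcripts had 7 of 22 called lower in S10 and none higher, and ribosome biogenesis 11 of 29 lower and none higher. Cidec was at 27.2 to 133 RPKM in X10 (median 53.4), far above all S10 livers (log2 fold change -4.56 ± 0.56 (SE), adjusted p = 3.45e-08). Plin2 was at 509 to 1037 RPKM in X10 (median 708; log2 fold change -1.80, adjusted p = 5.62e-06). Apoa4 was at 572 to 3763 RPKM (median 734; log2 fold change -1.51, adjusted p = 0.0082). In none of these 3 did S10 reach the X10 range. Ccnd1 was at 16.1 to 31.3 RPKM in X10 (median 24.7; log2 fold change -1.22, adjusted p = 0.018). Cdkn1a was at 2.56 to 15.4 RPKM (median 8.02; log2 fold change -2.97, adjusted p = 4.02e-04). Both were lower in every S10 liver than in every X10 liver.

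Of 24 bile acid transcripts 5 were called higher in S10 than in X10 and 1 lower, and of the 19 clock genes 4 higher and none lower. Cyp7a1 was at 0.294 to 5.91 RPKM in X10 (median 1.28; log2 fold change 3.62, adjusted p = 9.39e-06). Hsd3b3 was at 1.08 to 3.56 RPKM (median 1.99; log2 fold change 1.75, adjusted p = 3.97e-04). Adck3 was at 0.886 to 2.88 RPKM (median 1.34; log2 fold change 1.71, adjusted p = 4.31e-05). All 3 were higher in every S10 liver than in every X10 liver. For Hsd3b3 and Adck3 both groups were below C0. The clock genes Dbp and Per3 were among those called higher. Dbp was at 5.56 to 17.8 RPKM in X10 (median 6.76; log2 fold change 1.41, adjusted p = 0.002). Per3 was at 0.921 to 1.84 RPKM (log2 fold change 0.72, adjusted p = 0.0031). For both, every S10 liver was above every X10 liver. Arntl was not called, at 0.391 to 1.01 RPKM in X10 (log2 fold change -0.31 ± 0.20 (SE), adjusted p = 0.32). Of the 32 acute-phase transcripts 1 was called higher (Saa4) and none lower, for example Saa2 at 9115 to 18636 RPKM in X10 (log2 fold change 0.32 ± 0.68 (SE), adjusted p = 0.84), a p that does not show equal levels.

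Against the earlier and later sham livers, 3498 genes (22.7%) were called higher and 790 (5.13%) lower in S10 than in S4, and 892 (5.79%) higher and 835 (5.42%) lower than in S20. Of the calls against S4, 81.6% were higher as deposited, 38.3% with median scaling and 52.3% with quantile normalization, so the split follows the scaling (median gene 0.16 and −0.15). Against S20 it was 51.7%, 35.9% and 45.4%. Steap4 was lower in S10 than in S4 (S4 467 to 1969 RPKM; log2 fold change -2.56, adjusted p = 3.16e-06), as were Mt2 (S4 3458 to 4974 RPKM; log2 fold change -2.57, adjusted p = 0.0038) and Cxcl1 (S4 152 to 247 RPKM; log2 fold change -2.53, adjusted p = 9.35e-04). The 3 fibrinogen chains were called higher in S10 than in S20, with Fga at 2894 to 3249.6 RPKM in S20 (log2 fold change 1.40, adjusted p = 4.72e-06). Acute-phase transcripts as a list had 3 higher and 7 lower against S4, and 11 higher and none lower against S20. Cyp7a1 was at 0.156 to 2.42 RPKM in S4, below every S10 liver (log2 fold change 4.36, adjusted p = 1.80e-08). Syt12 was at 6.31 to 21.2 RPKM in S4 and 0.412 to 0.665 RPKM in S20, with a log2 difference of -0.86 between S10 and S4, whose livers overlapped, and of 3.16 between S10 and S20.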

How the data were processed

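Livers of individual mice were sequenced by the authors as stranded poly(A) RNA (single-end reads). Per the study's methods and processing notes, reads were trimmed with Cutadapt and prinseq-lite, aligned to mm9 with TopHat 2.0.13 on Bowtie2, and counted with featureCounts on Ensembl genes. A read with several positions counted as a fraction at each, so close paralogs can share reads. The authors deposited log2 RPKM values for 37991 genes in 84 columns. Of these, 80 columns match a labelled sample, 4 match no label and were not used, and 7 labelled samples are not analysed here. Genes without reads stand at −14.2877 (52.9% of the values). No spike-in scales the values, so every level is relative to the library.

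Counts were not used: only 75.3% to 78.1% of low values in the S10 and C0 libraries came out as whole reads (tolerance 0.05), so no count test was run. Depth was estimated from the steps between low values, and intervals for it were not computed. Genes above −1.5 (log2 RPKM) in at least 1 library were kept (15396). Values as log2(RPKM + 0.25) were fitted with limma 3.58.1 in R 4.3.3 with an intensity trend and all groups in 1 model (20 coefficients, 60 residual degrees of freedom), with C0 replicates 7 to 9 as a group of their own. P values were adjusted by Benjamini-Hochberg over all genes kept, and the test was tested on simulated data. The simulated livers had the same spread setting for every gene and no split by replicate number. The simulation thus cannot show how the test behaves where resting livers split, as they did here. Contrasts were S10 against C0, X10, S4 and S20. The comparison and the gene lists were chosen with earlier results of these data known. The named genes were the 15 largest increases and the 15 largest decreases among called protein-coding genes with a mean log2 RPKM above 0 in either group and no overlap between the groups, the list members with the largest changes, and clock, cyclin and serum amyloid genes of interest to the study. A few of them are not reported here. Promoter sequences are from RefSeq (GRCm38.p6) and were matched by symbol. No 2 of the libraries held identical values. Other pseudocounts, filters, scalings, thresholds, sets of resting livers, single libraries left out and a replicate block were tried. Tables were handled with Python 3.11.15, pandas 2.3.3 and numpy 2.4.6, and plots were drawn with matplotlib 3.10.9.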

Additional observations from a re-analysis of the deposited data

Results flagged for a closer look

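The 144 transcripts named above were each looked at with Dixon's test over the 6 resting livers. In 6 of them 1 liver lay far from the others, and the test flags about 1 in 20 groups (5%) by chance. Derl3 was at 7.32 RPKM in C0 replicate 1 and at 0.291 to 1.19 RPKM in the other 5. In the same liver Hsd3b2 was at 20.7 RPKM (others 17.8 to 18.6), Ppp1r3c at 28.2 RPKM (others 45.1 to 59.6) and Pmvk at 28.6 RPKM (others 46.9 to 56.4). Nfil3 was at 18.3 RPKM in C0 replicate 3 (others 23.3 to 26.2), and Cd14 at 0.688 RPKM in C0 replicate 2 (others 0.289 to 0.405). Groups of 3 livers such as S10 were not tested in this way.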

How the results depend on the processing

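S10 against C0 gave 3844 calls, 2275 higher and 1569 lower. Without the fold threshold these were 6421 (4074 higher), at an adjusted p below 1e-07 670 (401 and 269), with a pseudocount of 1 2483 (1371 higher), and with median scaling 1287 higher and 2553 lower. Against C0 replicates 7 to 9 only, chosen after seeing the data, they were 6204 (3783 and 2421). S10 against X10 gave 1150 calls, then 2063 (1057 and 1006) without the fold threshold, 11 (2 and 9) at 1e-07, 705 (359 and 346) with a pseudocount of 1, and 899 higher against X10 replicates 1 to 3. S10 against S4 gave 4288 calls, then 6449 (1222 lower), 781 (714 and 67) and 2610 (2057 higher) under the first 3 settings, 1492 higher and 2401 lower with median scaling, and 1821 and 1658 with quantile normalization. S10 against S20 gave 1727 calls, then 2674 (1580 higher), 41 (11 and 30) and 1147 (548 higher).

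Leaving out 1 library at a time gave 3527 to 3954 calls for S10 against C0 (2117 to 2382 higher, 1410 to 1575 lower), 830 to 1297 against X10 (397 to 703, 433 to 606), 3956 to 4426 against S4 (3269 to 3674, 687 to 835) and 1352 to 1815 against S20 (649 to 1044, 643 to 783). S10 and C0 livers of the same replicate number did not deviate together (r = 0.026, −0.023 and −0.00062), so no pairing by number was seen between these livers. The C0 livers with replicate numbers beyond those of S10, and the X10, S4 and S20 livers, were not compared in this way. Whether S10 livers pair with any of those was thus not tested. With the replicate block there were 4107 calls against C0 (2492 higher, 1615 lower), 1465 against X10 (845, 620), 4495 against S4 (3644, 851) and 1767 against S20 (912, 855).

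Of 144 named genes 136 were called, and 106 of these kept the call in all settings that kept both thresholds. Calls were lost, turned signs included, for 14 against C0 replicates 1 to 3, 7 against 4 to 6, 19 against 7 to 9 (Alb, Cdkn1a, Hamp, Nfil3 and Zbtb16 besides those given here or above), 5 with median scaling, 4 with quantile normalization, 5 with a pseudocount of 1 and 2 with the block (Lpin1 and Marco). Without S10 replicate 1, 2 or 3, 6, 5 and 7 were lost. With only these 2 groups in the fit 11 were lost (Angptl4, Arg1, Cdkn1a, Fkbp5, Hamp, Hspa5, Lpin1, Nr1d1, Per1, Tsc22d3 and Zbtb16, adjusted p = 0.051 to 0.30). Of the 8 not called, Hspa1b was called with the block (1.26), without S10 replicate 3 (1.61), with all 9 resting livers (1.15) and with only the 2 groups, Fasn with median scaling (−0.92) and with only the 2 groups, and Cp with quantile normalization (0.61) and without S10 replicate 1 (0.53) or 2 (0.55). Cry2, just under the fold threshold, was called in 7 settings that kept both thresholds, at 0.50 to 1.04. The block changed no other call of a named gene. The sign turned for Igf1 with median scaling (−0.027) and for Cyp7a1 without C0 replicate 1 (−0.047) and against replicates 4 to 6 (−0.64). Leaving out 1 library at a time, Cyp7a1 went from −0.047 to 0.58. It also turned for Tsc22d3 (0.048 and 0.30) and Lpin1 (0.37 and 0.063) against C0 replicates 1 to 3 and 7 to 9, and for Clock against all 9 (0.026) and 7 to 9 (0.64). Against replicates 7 to 9 it turned for Nr1d1 (−0.0043), Rora (0.060), S100a8 (−0.18) and S100a9 (−0.75). The causes were not tested. The 3 S10 livers, at 17.1 to 32.8 M reads, limit what could be detected among weak transcripts.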

Other observations

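Of 15 tested transcripts of iron and zinc handling, 4 were called higher and 4 lower in S10 than in C0, and 2 were lower without S10 replicate 3. Mesothelial markers had none of 4 tested called, erythroid markers 1 of 5 called lower, and adipocyte and skeletal muscle markers none of 1 tested in each list. Against S4, 13 of the 22 immediate early transcripts and 12 of the 29 of ribosome biogenesis were called lower in S10 and none higher, beside 5.13% of all genes lower and 22.7% higher. The lower calls over all genes rose from 790 to 2401 with median scaling. Against S20, 13 of the 26 cholesterol transcripts were called lower in S10 and none higher, and 8 of the 23 of fatty acid synthesis lower and 1 higher, beside 5.42% of all genes lower and 5.79% higher.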
